A study of Mus musculus with 12 samples.

Results

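The miRNAs described here come from the imprinted cluster on mouse chromosome 12 that runs from miR-379 to miR-410. They were chosen by name: every arm of 36 listed hairpins that reached 1 CPM (counts per 1000000 miRNA reads of the library) in at least 6 of 12 kidney libraries. The table held 66 names from 34 of these hairpins, and 44 of them, from 30 hairpins, met the minimum. They are 18 arms from the 5p side and 26 from the 3p side of a hairpin, among 564 names tested and 1652 in all. Names of miR-299b and miR-654 were not analysed here, and miR-409 was left out of the list by choice. Mature miRNAs were sequenced from kidneys of wild-type, untreated mice at day 8 and day 0 after birth, with 6 libraries at each age. The study searched for miRNAs that differ between these ages and may regulate the receptor for mineralocorticoids. Genotype (WT), treatment (untreated) and organ (kidney) were shared by both groups, and age was the only labelled difference. Neither sex, litter nor the number of animals behind a library is labelled, so the p-values speak only of the spread among these libraries, which could be partly technical.

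The day 8 libraries held from 5.16 to 11.8 M miRNA reads (M, 1000000) and the day 0 libraries from 3.37 to 9.05 M. In both ages the libraries carried the miRNAs of kidney epithelium: a list of 8 hairpins (miR-192, miR-194, miR-204, miR-30a, miR-200a, miR-200b, miR-429 and miR-10a) summed to between 126410 and 146287 CPM at day 8 and between 101379 and 112843 CPM at day 0. Its most abundant name was miR-10a-5p, at a mean of 50936 CPM at day 8 and 59790 CPM at day 0, and without miR-10a the sums were between 75712 and 84977 CPM at day 8 and between 43641 and 49735 CPM at day 0. The numbers in the sample titles are all higher at day 8 than at day 0, and an order they might mark cannot be told apart from age.

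A miRNA is cut from a hairpin as a short duplex, and one arm, or both, is loaded into an Argonaute protein. Bases 2 to 8 of the loaded arm, its seed, pair with target mRNAs, which are then repressed. The hairpins between Dlk1 and Dio3 are made from the maternal chromosome only, under control of an imprinted region between Dlk1 and Meg3, and they are known above all from placenta, embryo and brain. Loss of the miR-379 to miR-410 cluster in mice impairs metabolic adaptation of the newborn. In mouse diabetic kidney, the transcript that hosts the cluster rises in glomerular mesangial cells.

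On GRCm38 with the GENCODE M21 annotation, the hairpin of miR-379 lies on the plus strand of chromosome 12 at 109709060 to 109709125. That of miR-410 ends the cluster at 109743715 to 109743795, which is 34.7 kb further on, start to start. The cluster is often named after the long non-coding RNA gene Mirg, annotated at 109729764 to 109749460. Only 11 of the 36 hairpins lie within Mirg as annotated, from miR-382 to miR-410, and 8 of these overlap a Mirg exon. The other 25 lie before its start, in no annotated host gene. Rtl1, on the minus strand, and Rian, on the plus strand, are annotated between Meg3 and miR-379. The positions of the domain's other miRNA hairpins were not examined here.

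Mature sequences were taken from RefSeq (GRCm38.p6), where 41 of the 44 members matched by name. miR-376c-3p, miR-487b-3p and miR-485-5p are named only. The sequences that the results turn on are printed 5′ to 3′ with the seed in capitals. The first 4 show the arms of the neighbouring hairpins miR-379 and miR-411.
miR-379-5p: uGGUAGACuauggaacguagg
miR-411-5p: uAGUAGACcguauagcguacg
miR-379-3p: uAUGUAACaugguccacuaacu
miR-411-3p: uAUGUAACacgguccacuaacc

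The 3p arms of miR-379 and miR-411 share their seed and 20 of 22 bases, with the substitutions U10C and U22C (miR-379-3p first, positions counted from 1 at the 5′ end). Next come near-identical pairs whose seeds differ.
miR-300-3p: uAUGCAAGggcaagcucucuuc
miR-381-3p: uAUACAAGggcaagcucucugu
miR-376b-3p: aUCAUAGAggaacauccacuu
miR-376a-3p: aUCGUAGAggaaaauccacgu

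miR-300-3p and miR-381-3p share 19 of 22 bases (G4A, U21G and C22U), and miR-376b-3p and miR-376a-3p share 18 of 21 (A4G, C13A and U20G). Position 4 lies in the seed in each case. The authors' counting could divide reads of such pairs, so their separate values are uncertain. Seeds were compared only among the 482 of 564 tested names that had a RefSeq mature sequence. The remaining sequences are those of members called lower or higher relative to miR-379-5p, as described below, and of both arms of 3 hairpins (miR-376b-3p is printed above). Last are miR-329-3p and the 1 miRNA outside the cluster found among those 482 names to share a seed with a member.
miR-541-5p: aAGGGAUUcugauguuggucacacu
miR-134-5p: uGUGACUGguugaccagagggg
miR-382-5p: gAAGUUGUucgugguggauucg
miR-323-3p: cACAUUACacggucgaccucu
miR-299a-5p: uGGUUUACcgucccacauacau
miR-299a-3p: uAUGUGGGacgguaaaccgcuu
miR-376b-5p: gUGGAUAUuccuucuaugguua
miR-369-5p: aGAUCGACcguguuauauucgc
miR-369-3p: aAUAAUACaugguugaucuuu
miR-329-3p: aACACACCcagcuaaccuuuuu
miR-362-3p: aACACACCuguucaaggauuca

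The 41 matched members carry 40 distinct seeds, so AUGUAAC is the only seed that 2 of them share. Of the 41, 20 start with U, 15 with A and 6 with C or G, and their lengths run from 21 to 25 bases.

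The first comparison asked how these miRNAs differed between day 8 and day 0. Day 8 kidneys held a smaller share of nearly every cluster member. Summed, the 44 members made up 2233 ± 141 CPM at day 8 and 8172 ± 1242 CPM at day 0 (SD, n = 6 each), which is 0.22% of the miRNA reads at day 8 and 0.82% at day 0. The sum at day 8 was 3.66-fold lower. Its values lay between 2062 and 2404 CPM in the day 8 libraries and between 6780.3 and 9656 CPM in the day 0 libraries, without overlap. In whole-kidney RNA, fewer cells that make a miRNA and less of it per cell cannot be told apart, and a CPM value is a share, not a number of molecules.

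By limma with Benjamini-Hochberg adjustment over all 564 names, 42 of the 44 members were lower at day 8 and 0 were higher (0 also at an unadjusted p under 0.05, and by edgeR and DESeq2). Of all tested names, 48.2% were called lower and 16.5% higher. The members' log2 changes (day 8 over day 0, of CPM + 1) ran from -2.58 to -0.26 with a median of -1.67, beside a median of -0.34 over all names. All 6 day 8 libraries lay below all 6 day 0 libraries for 39 members, where this held for 35.1% of all names. A fall of at least 1 on the log2 scale was called for 39 members, and for 24.3% of all names. The minimum for testing could be met by day 0 libraries alone: 13 members reached 1 CPM in fewer than 6 day 8 libraries, and 3 of these, miR-543-5p, miR-495-5p and miR-410-5p, in 0 of them. A member that met it through day 0 alone had to be lower, so the counts are given as a description. The 22 members with a mean of at least 20 CPM over all 12 libraries reached 1 CPM in every library. Each of these 22 was lower at day 8 without overlap, with log2 changes from -2.49 to -0.94. This mean could be met through day 0 as well: 6 of the 22, with changes from -2.49 to -1.62, averaged under 20 CPM at day 8. The 16 that averaged at least 20 CPM at day 8 alone ran from -2.40 to -0.94.

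**Figure D1:**
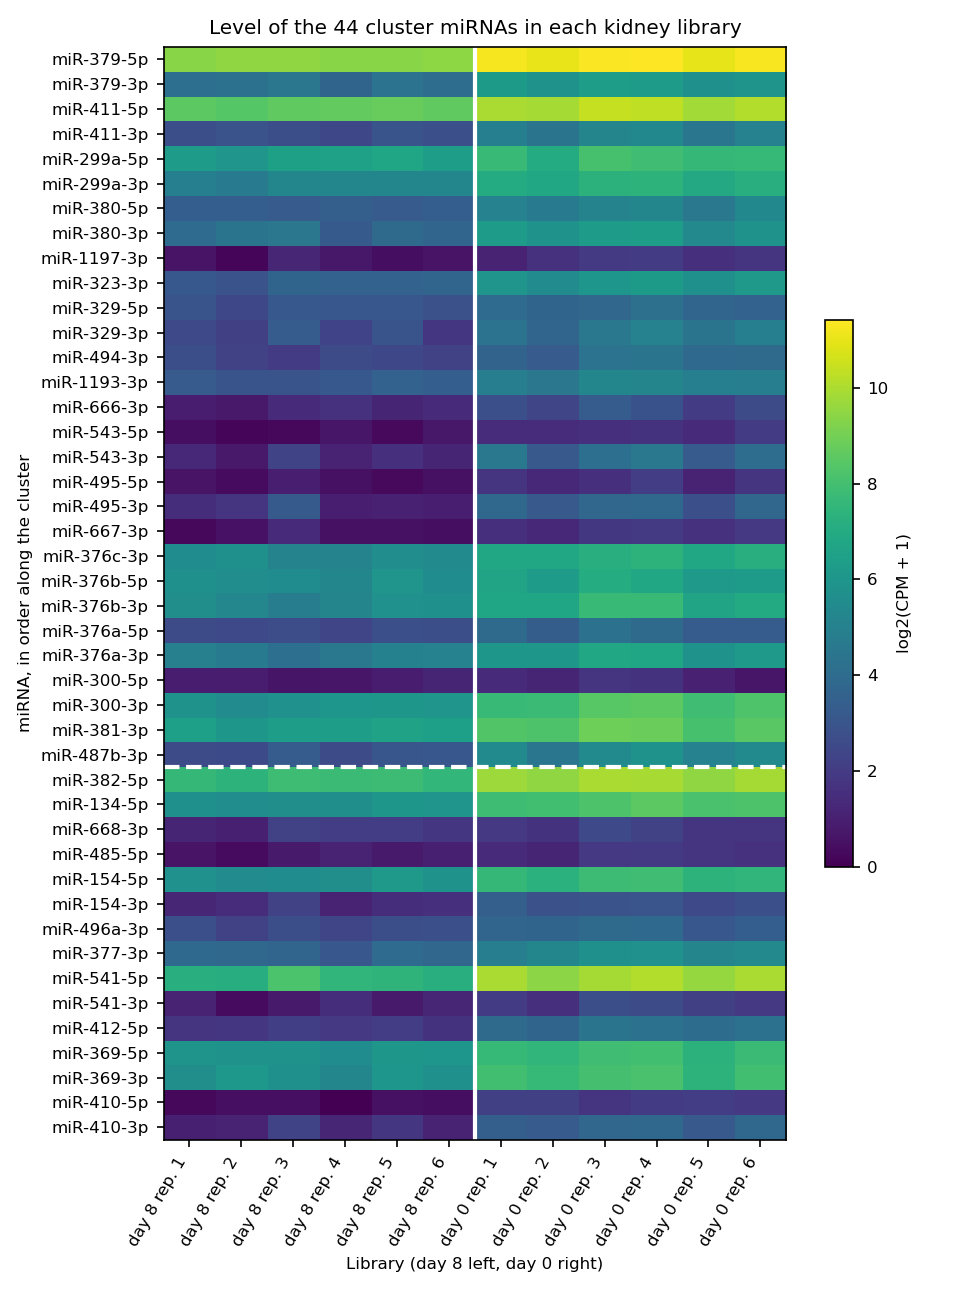
Level of each of the 44 members (rows, in their order along the cluster) in each library (columns, day 8 on the left and day 0 on the right of the solid line), as log2(CPM + 1). The dashed line marks the start of the hairpins within annotated Mirg. The colours are darker on the day 8 side in nearly every row, and miR-379-5p, between 660.0 and 732 CPM at day 8 and between 2008 and 2735 CPM at day 0, is the brightest row of both ages.

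Scaling mattered for size. TMM factors, which hold most names constant on average, moved the median of all 564 names to -0.00 and upper quartile factors moved it to 0.14. With TMM factors 42 members were still called lower and 0 higher, with a median of -1.32, while 34.2% of all names were lower and 30.3% higher. Upper quartile factors gave 42 members lower and 0 higher as well, with a median of -1.15, beside 27.8% of names lower and 37.8% higher. Both shifts weigh most on members whose change is small.

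**Figure D2:**
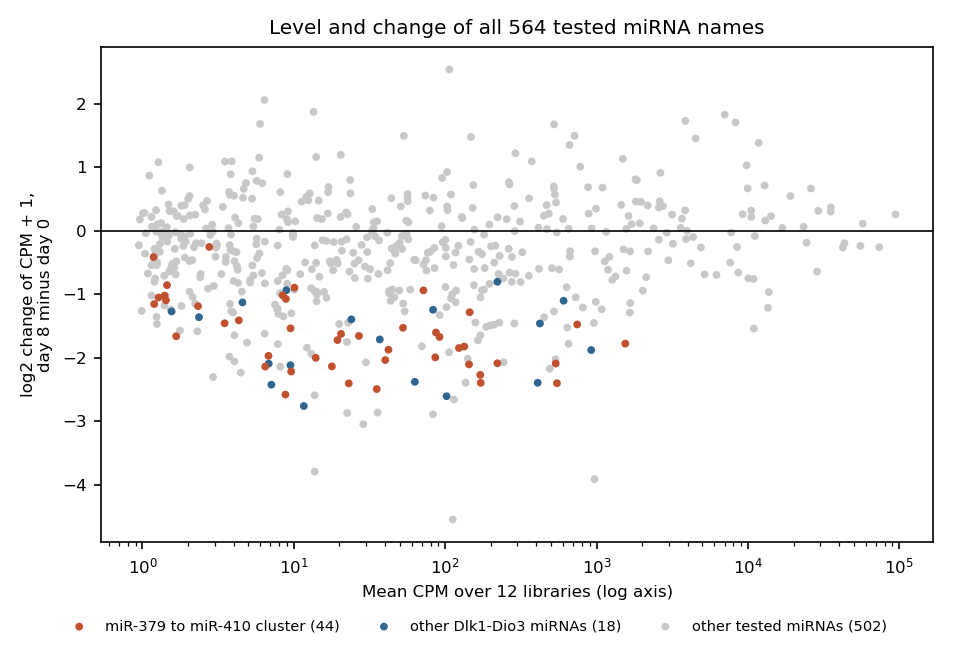
Mean level over the 12 libraries (CPM, log axis) and log2 change of CPM + 1 (day 8 minus day 0) of the 564 tested names. Each point is 1 name: the 44 cluster members, the 18 other tested miRNAs of the Dlk1-Dio3 domain, and the remaining 502. The members lie under 0, with a median of -1.67 beside -0.34 for all names.

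The cluster's output was uneven. The 8 most abundant members held 78.1 ± 2.0% of the summed CPM at day 8 and 78.7 ± 0.99% at day 0. miR-379-5p alone held 31.2 ± 2.42% at day 8 and 29.5 ± 1.24% at day 0 (SD, n = 6 each), and these shares overlapped between the ages. In every library miR-379-5p was above miR-411-5p, the second most abundant member. By mean CPM over all names of the table, miR-379-5p ranked 94 at day 8 and 56 at day 0, and 43 of 44 members had a lower rank at day 8 than at day 0. The exception was miR-668-3p. The same count over all names is not given here, and meeting the minimum through day 0 alone favours a lower rank at day 8. The count of ranks is therefore a description.

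The first 4 hairpins of the cluster that gave members are miR-379, miR-411, miR-299a and miR-380. miR-379-5p ran from 660.0 to 732 CPM (median 689) in the day 8 libraries and from 2008 to 2735 CPM (median 2464) in the day 0 libraries. The day 8 values lay close together, with a coefficient of variation of 4.51%, against 11.9% at day 0, and the ages did not overlap. Its log2 change was -1.78 (SE 0.086, limma adjusted p = 1.2e-09). The depth behind it was 3764 to 24740 reads per library. miR-411-5p ran from 334 to 431.4 CPM (median 398) at day 8 and from 903 to 1368 CPM (median 1047) at day 0. The gap between the ages was clear here too, although the fall was smaller, at -1.48 (SE 0.111, adjusted p = 3.7e-08, limma). With upper quartile factors it was -0.91.

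miR-299a-5p was between 61.0 and 102 CPM (median 84.7) at day 8, and between 129.8 and 271 CPM (median 203.5) at day 0. The highest day 8 library thus came within a short distance of the lowest day 0 library, replicate 2. The log2 change of -1.28 (SE 0.167, limma adjusted p = 8.8e-06) was -0.90 with TMM and -0.72 with upper quartile factors. The opposite arm, miR-299a-3p, fell to 33.8 ± 4.86 CPM at day 8 against 138 ± 22.3 CPM at day 0 (SD, n = 6 each; log2 change -1.99). Both arms of miR-380 were lower as well, with log2 changes of -1.62 for miR-380-5p and -2.04 for miR-380-3p.

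In the middle of the cluster, from miR-1197 to miR-487b, most members were less abundant. miR-323-3p fell most among members with a mean of at least 20 CPM. It was between 6.49 and 12.3 CPM (median 10.9) in day 8 libraries and between 45.1 and 73.2 CPM (median 62.0) in day 0 libraries, with at least 53 reads per library at day 8. The highest day 8 library lay far under the lowest day 0 one, and the log2 change was -2.49 (SE 0.165, limma adjusted p = 1.1e-08). miR-487b-3p came next, with 4.90 to 9.11 CPM (median 6.29) at day 8 and 21.4 to 55.3 CPM (median 42.5) at day 0, and a log2 change of -2.40 (SE 0.211, limma adjusted p = 1.6e-07). Its day 0 libraries were widely spread, with replicate 2 lowest and replicate 4 highest, yet all stood above day 8.

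miR-300-3p and miR-381-3p, the near-identical pair, both fell strongly. miR-300-3p was between 44.6 and 65.6 CPM (median 58.0) at day 8, against 211.5 to 376.3 CPM (median 274) at day 0, a log2 change of -2.27 (SE 0.158, limma adjusted p = 1.7e-08). For miR-381-3p the ranges were 65.4 to 95.2 CPM (median 85.0) at day 8 and 275 to 472 CPM (median 335) at day 0, a log2 change of -2.09 (SE 0.142, limma adjusted p = 1.4e-08). No day 8 library of either reached a day 0 library. miR-300-5p, the other arm of the miR-300 hairpin, was rare: it was between 0.58 and 1.27 CPM (median 0.86) at day 8 and between 0.59 and 2.37 CPM (median 1.45) at day 0. These ranges overlapped, and its log2 change of -0.42 missed the threshold (limma adjusted p = 0.065). It passed without day 0 replicate 6 (-0.54) or without day 8 replicate 6 (-0.48).

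The miR-376 hairpins are known in human and mouse brain for A-to-I editing within the seed. Of the 22 members with a mean of at least 20 CPM, miR-376b-5p changed least. It was between 37.0 and 61.1 CPM (median 47.0) at day 8 and between 71.1 and 133.01 CPM (median 89.5) at day 0, with a log2 change of -0.94 (SE 0.166, limma adjusted p = 0.00017). The ages stayed apart by a narrow margin, and the change was -0.56 with TMM and -0.38 with upper quartile factors, still past the threshold. miR-376a-3p was between 17.1 and 32.3 CPM (median 27.6) at day 8, against 56.3 to 112 CPM (median 68.1) at day 0, and changed by -1.53 (SE 0.197, limma adjusted p = 8.1e-06). For miR-376c-3p the values were 33.3 to 51.3 CPM (median 44.4) at day 8 and 109.7 to 165 CPM (median 127.3) at day 0, a change of -1.60 (SE 0.143, limma adjusted p = 2.0e-07). Day 8 replicate 3 was lowest in both miR-376a-3p and miR-376c-3p, and neither overlapped between the ages. How edited reads were counted is not given in the sources used here.

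Within annotated Mirg, the most abundant members were miR-541-5p, miR-382-5p and miR-134-5p. miR-541-5p was between 137 and 286 CPM (median 158) at day 8, and between 698 and 1083 CPM (median 965) at day 0. Day 8 replicate 3 held the highest of the day 8 values and stood apart from the other 5 libraries of that age, but it lay far below every day 0 library. The log2 change was -2.40 (SE 0.172, limma adjusted p = 2.3e-08), and -2.55 without that library. miR-541-5p exceeded miR-382-5p in 1 of 6 day 8 libraries and in 4 of 6 day 0 libraries.

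miR-382-5p, whose inhibition lessens fibrosis in the obstructed mouse kidney, was between 164 and 231 CPM (median 205.5) at day 8 and between 729 and 995 CPM (median 903) at day 0. The highest day 8 library, replicate 3, was far below the lowest day 0 library, replicate 2, and the log2 change was -2.09 (SE 0.113, limma adjusted p = 2.0e-09). miR-134-5p limits the growth of dendritic spines in rat neurons. It was between 47.8 and 64.8 CPM (median 51.1) at day 8 and between 236 and 370 CPM (median 288) at day 0. Its log2 change of -2.39 (SE 0.122, limma adjusted p = 1.2e-09) was well outside the spread of either age, and it was 5.36-fold lower by mean CPM.

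Both arms of miR-369 were abundant. miR-369-3p was between 37.2 and 67.2 CPM (median 52.4) at day 8, and between 165.5 and 283 CPM (median 245.5) at day 0, a log2 change of -2.11 (SE 0.158, limma adjusted p = 3.7e-08). miR-369-5p changed by -1.82, without overlap between the ages either. miR-154-5p averaged 52.9 ± 8.92 CPM at day 8 and 193.5 ± 34.4 CPM at day 0 (SD, n = 6 each; log2 change -1.85). miR-377-3p, which raises fibronectin in cultured mesangial cells, averaged 12.4 ± 2.52 CPM at day 8 and 41.5 ± 10.1 CPM at day 0 (log2 change -1.66). Among the rare members, miR-668-3p was between 0.98 and 3.68 CPM (median 2.85) at day 8 and between 2.20 and 4.74 CPM (median 2.59) at day 0. These ranges overlapped, and its log2 change of -0.26 missed the threshold (limma adjusted p = 0.349) and was 0.019 with TMM factors.

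**Figure D3:**
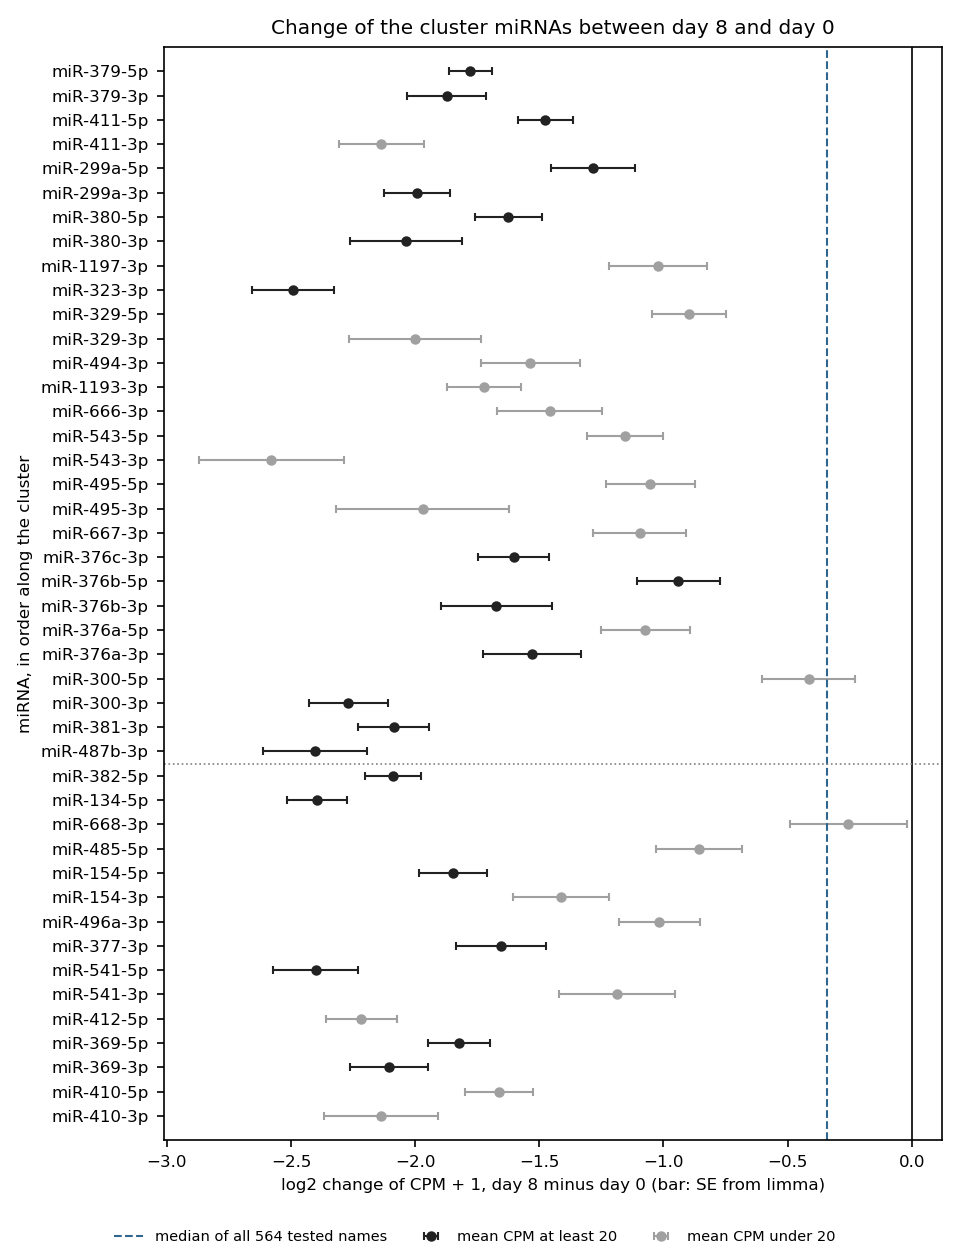
Log2 change of CPM + 1 (day 8 minus day 0) of the 44 members in their order along the cluster, with the standard error from limma as bars. Black points are the 22 members with a mean of at least 20 CPM, grey points the 22 below it, the dotted line the start of annotated Mirg, and the dashed line the median of all 564 names, -0.34. The black points run from -2.49 for miR-323-3p to -0.94 for miR-376b-5p and the grey points nearest to 0 are miR-300-5p and miR-668-3p.

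The 22 members with a mean under 20 CPM ran from -2.58 to -0.26 with a median of -1.30, and a pseudocount of 1 shrinks the change of such rare names. The fall of -2.58 was that of miR-543-3p, with 6 to 21 reads per library at day 8 and 52 to 205 at day 0. miR-410-5p had 0 to 4 reads per library at day 8 and 9 to 28 at day 0. A further 22 names of the listed hairpins did not reach the minimum, and together they had 165 reads in the day 8 libraries and 410 in the day 0 libraries. Of these names, 4 had no read at day 8 and 1 had none at day 0, and limits drawn from such numbers cover counting error only.

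Members were lower at day 8 on both sides of the start of Mirg. The 29 members from hairpins before Mirg summed to 1605 ± 70.3 CPM at day 8 and 5359 ± 851 CPM at day 0 (SD, n = 6 each), 3.34-fold lower at day 8, with a median log2 change of -1.62. The 15 members from hairpins within Mirg summed to 628 ± 80.4 CPM at day 8 and 2813 ± 403 CPM at day 0, 4.48-fold lower at day 8, with a median of -1.82. The difference between these stretches of the cluster was not tested. Restricted to a mean of at least 20 CPM, the medians were -1.78 for 15 members before Mirg and -2.09 for 7 within it.

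The next comparison asked whether members fell by other amounts than miR-379-5p, the first and most abundant of them. It used the ratio to miR-379-5p within each library, each value as CPM + 1. Of the 21 other members with a mean of at least 20 CPM, limma called 8 lower and 3 higher relative to miR-379-5p, and 10 did not pass. TMM and upper quartile factors, added after seeing the data, also gave 8 lower and 3 higher. Scaling cancels in a ratio within a library except through the pseudocount, so this is no check of the calls. Since most names of the table fell less than miR-379-5p, 84.2% of all 563 other names were called higher and 4.80% lower. With so many calls, the adjustment changed p-values little: for miR-411-5p limma gave 0.0103 unadjusted and 0.0121 adjusted. All these ratios also share miR-379-5p as denominator, so the calls are not independent of each other.

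The 8 members that lost ground came from hairpins before Mirg and within it. miR-323-3p stood at 1.45 ± 0.338% of miR-379-5p at day 8 and at 2.52 ± 0.215% at day 0 (SD, n = 6 each), a log2 change of the ratio of -0.72 (SE 0.157, limma adjusted p = 0.00048). For miR-541-5p the shares were 25.4 ± 7.47% at day 8 and 38.2 ± 2.91% at day 0 (-0.62, SE 0.154, limma adjusted p = 0.0013). miR-134-5p stood at 7.79 ± 1.16% at day 8 and 12.1 ± 1.49% at day 0 (-0.62, SE 0.126, limma adjusted p = 0.00025). The remaining changes of the ratio were -0.63 for miR-487b-3p, -0.49 for miR-300-3p, -0.33 for miR-369-3p, -0.31 for miR-382-5p and -0.31 for miR-381-3p. That of miR-381-3p lost its call without day 0 replicate 3 (-0.25), day 0 replicate 4 (-0.28) or day 8 replicate 2 (-0.23), and that of miR-369-3p without day 8 replicate 4 (-0.24). A pseudocount of 5 ended the calls of miR-381-3p, miR-369-3p and miR-487b-3p.

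A group of 3 members gained ground on miR-379-5p. miR-376b-5p stood at 6.97 ± 1.23% of it at day 8 and at 3.94 ± 0.708% at day 0 (SD, n = 6 each; log2 change of the ratio 0.84, SE 0.146, limma adjusted p = 6.9e-05). miR-299a-5p stood at 12.1 ± 2.37% at day 8 and 8.58 ± 1.45% at day 0 (0.49, SE 0.155, limma adjusted p = 0.0074). miR-411-5p, from the hairpin next to miR-379, stood at 56.4 ± 6.51% at day 8 and 45.7 ± 3.71% at day 0 (0.30, SE 0.103, limma adjusted p = 0.012). miR-376a-3p, at 0.25, was not called but passed without day 8 replicate 3 (0.38).

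**Figure D4:**
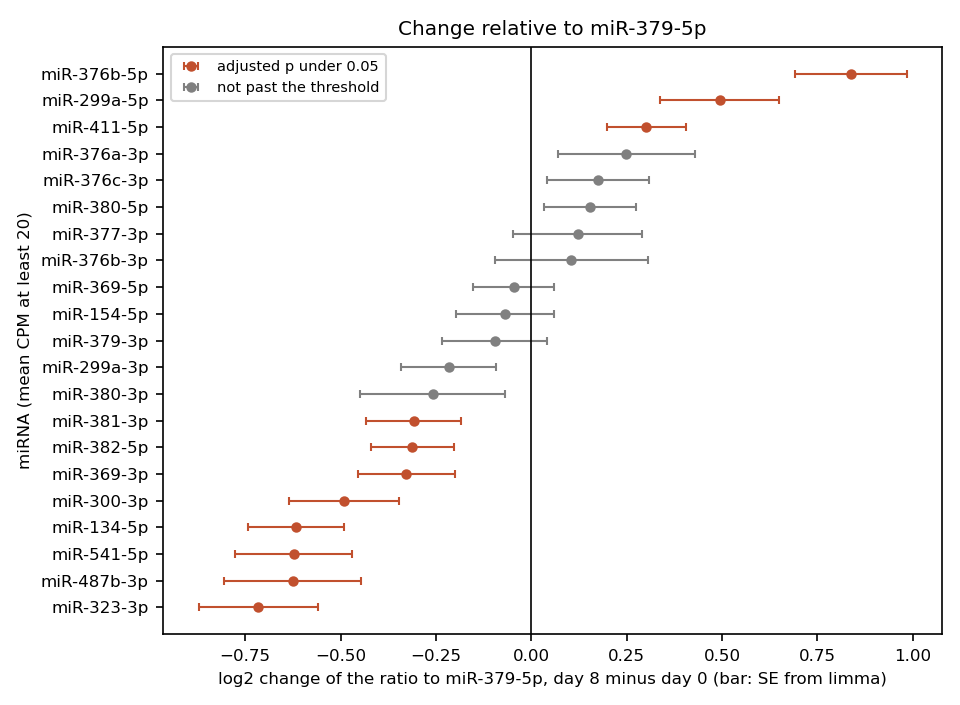
Log2 change of the ratio to miR-379-5p (day 8 minus day 0) of the 21 other members with a mean of at least 20 CPM, with the standard error from limma as bars. Orange points passed an adjusted p of 0.05. They run from -0.72 for miR-323-3p to 0.84 for miR-376b-5p, and 10 grey points around 0 did not pass.

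Another comparison concerned the arms of a hairpin, tested as the log2 ratio of 5p to 3p where both arms averaged at least 20 CPM. Of 14 cluster hairpins with both arms among the members, 5 met this, miR-379, miR-299a, miR-380, miR-376b and miR-369. At day 8 alone miR-379-3p (17.5 CPM), miR-380-5p (9.40 CPM) and miR-380-3p (15.3 CPM) averaged less than 20 CPM. The ratio changed in 2 of the 5, while 62.5% of the 72 hairpins of the table in this test changed, 26 towards the 5p arm and 19 towards the 3p arm. For miR-299a the log2 ratio was between 1.12 and 1.45 (median 1.27) at day 8 and between 0.24 and 0.76 (median 0.59) at day 0, without overlap. The 5p arm made up 71.0 ± 1.57% of the hairpin's reads at day 8 and 59.6 ± 3.30% at day 0 (SD, n = 6 each), a change of the log2 ratio of 0.71 (SE 0.121, limma adjusted p = 0.00011).

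For miR-376b the ratio was between -0.16 and 0.76 (median 0.12) at day 8 and between -0.86 and -0.04 (median -0.56) at day 0. The highest day 0 library, replicate 1, reached into the day 8 range. The 5p arm held 53.6 ± 5.5% at day 8 and 40.9 ± 4.81% at day 0, so the more abundant arm on average was 5p at day 8 and 3p at day 0 (change 0.73, SE 0.167, limma adjusted p = 0.0013). Day 8 replicate 3, the lowest of its age for miR-376b-3p (26.8 CPM), gave the highest ratio, while day 8 replicate 6 (-0.16) still held more 3p. Reads of miR-376b-3p could be divided with the near-identical miR-376a-3p, so this switch of arms is uncertain. The other 3 hairpins did not pass. miR-379 was almost wholly 5p, at 97.5 ± 0.43% at day 8 and 97.3 ± 0.27% at day 0 (change 0.10, limma adjusted p = 0.515). The change was 0.41 for miR-380 (SE 0.215, limma adjusted p = 0.103), which passed without day 8 replicate 3 (0.55) and was 0.24 without day 8 replicate 4. It was 0.28 for miR-369 (SE 0.122, limma adjusted p = 0.052), which passed without day 8 replicate 2 (0.36).

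**Figure D5:**
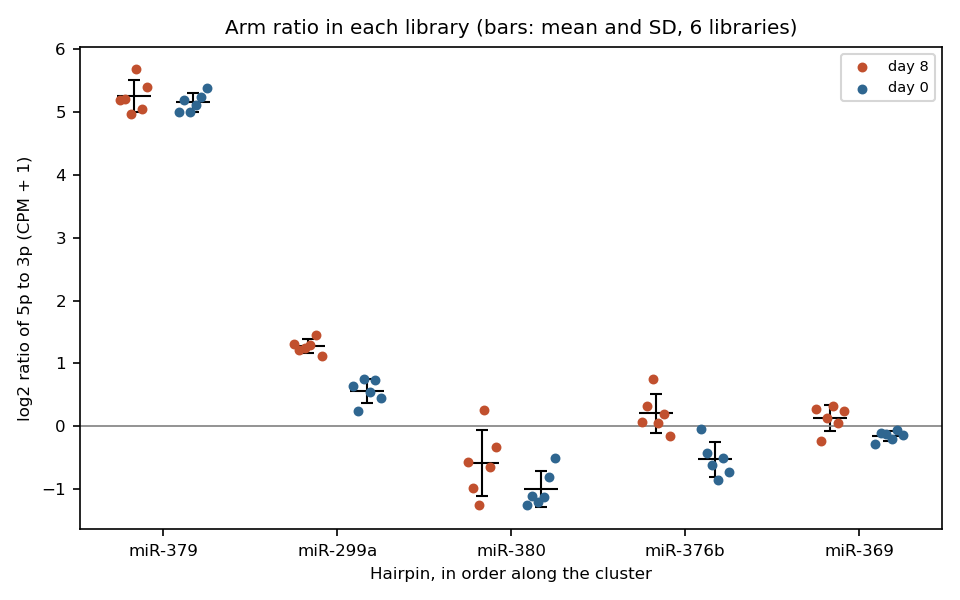
Log2 ratio of 5p to 3p (each CPM + 1) for the 5 cluster hairpins with both arms at a mean of at least 20 CPM. Each point is 1 library, day 8 to the left of day 0, and bars give mean and SD of 6 libraries. The ages are apart for miR-299a, at 1.27 ± 0.11 at day 8 and 0.56 ± 0.20 at day 0, and overlap for miR-376b, at 0.20 ± 0.32 at day 8 and -0.53 ± 0.28 at day 0.

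The last comparison set members against tested miRNAs with the same seed, among the 482 tested names with a RefSeq sequence. No such pair had both at a mean of at least 20 CPM, the minimum planned for this test, so both pairs found are given without it, a choice made after seeing the data. miR-329-3p shares the seed ACACACC with miR-362-3p, which is made from the X chromosome. miR-329-3p was between 2.55 and 9.11 CPM (median 4.30) at day 8 and between 12.3 and 32.8 CPM (median 21.5) at day 0, whereas miR-362-3p was between 42.7 and 80.2 CPM (median 60.4) at day 8 and between 39.8 and 65.0 CPM (median 55.1) at day 0. Libraries of the 2 ages were apart for miR-329-3p (log2 change -2.0) and overlapped for miR-362-3p (0.13, limma adjusted p = 0.461; TMM factors gave 0.51, a call). The log2 ratio of miR-329-3p to miR-362-3p was -3.39 ± 0.80 at day 8 and -1.26 ± 0.27 at day 0 (SD, n = 6 each). Its change of -2.13 had a two-sided exact permutation p of 0.00216, the smallest this design can give, or 0.00433 adjusted over both pairs.

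Within the cluster, miR-379-3p and miR-411-3p share the seed AUGUAAC. miR-379-3p averaged 17.5 ± 3.57 CPM at day 8 and 66.8 ± 12.4 CPM at day 0, and miR-411-3p 5.84 ± 0.79 CPM at day 8 and 29.8 ± 7.96 CPM at day 0 (SD, n = 6 each). The log2 ratio of miR-379-3p to miR-411-3p changed by 0.26 (two-sided exact permutation p = 0.063), with overlap between the ages. A call was made without day 0 replicate 2 (0.32) and with a pseudocount of 0.1 (0.37).

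At day 0 the libraries differed in the same direction for most members. Day 0 replicate 4 was above its own age's mean for 44 of 44 members and day 0 replicate 3 for 39, while day 0 replicate 2 was above it for 2 and replicate 5 for 3. The summed CPM at day 0 was accordingly 9656 in replicate 4, 9402 in replicate 3, 8461 in replicate 6, 7946 in replicate 1, 6785 in replicate 2 and 6780.3 in replicate 5. At day 8 the sums differed less, between 2062 in replicate 2 and 2404 in replicate 5. No library of either age came near the other age in this sum.

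The other miRNAs of the Dlk1-Dio3 domain were lower as well, with a median log2 change of -1.59. Beside 48.2% of all names, limma called 18 of their 18 tested names lower. One of them, miR-136-5p, overlapped between the ages and was not called with TMM factors, upper quartile factors, edgeR or DESeq2, each of which called the other 17 lower. They summed to 1437 ± 196 CPM at day 8 and 4444 ± 881.9 CPM at day 0 (SD, n = 6 each). The most abundant were miR-127-3p (log2 change -1.88), miR-434-3p (-1.10), miR-434-5p (-1.46) and miR-431-5p (-2.39). The changes of these 4 lay within the range of the 44 members, while miR-370-3p (-2.76) and miR-409-3p (-2.61), named after their values were seen, lay beyond its lower end. Both arms of miR-409 are counted among the 18 because that hairpin was left out of the list by choice. The range of the 44 members is thus not that of the whole stretch from miR-379 to miR-410.

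Names from lists of other tissues were called in both directions, and their part in the cluster's fall was not tested. Over all 564 names, limma called 48.2% lower and 16.5% higher. With TMM factors these shares were 34.2% and 30.3%, and with upper quartile factors 27.8% and 37.8%. Counts near these shares say little of a list. The list of striated muscle miRNAs had 4 of 4 tested names lower by limma, and also by edgeR and DESeq2. With TMM or upper quartile factors limma called 3 of 4, without miR-1a-3p, the list's most abundant name. Muscle miR-206-3p averaged 6.79 CPM at day 8 and 217 CPM at day 0. The list's 12 names summed to between 406 and 503 CPM at day 8 and between 499.7 and 1997 CPM at day 0. Both arms of liver miR-122 were lower, with sums between 15.2 and 333 CPM at day 8 and between 481 and 3296 CPM at day 0. Of the day 0 libraries, replicates 2 and 5 had the 2 lowest cluster sums (6785 and 6780.3 CPM). They also had the 2 lowest miR-206-3p levels (52.5 and 83.4 CPM) and the 2 lowest muscle sums (499.7 and 733 CPM). The highest values did not fall together. Replicate 4 had the highest cluster sum (9656 CPM), but its muscle sum (1198 CPM) was below those of replicates 1, 3 and 6. Replicate 1 had the highest miR-206-3p level (388 CPM) and muscle sum (1997 CPM), with a cluster sum of 7946 CPM. In miR-122-5p replicate 2 was the highest day 0 library (3284 CPM) and replicate 5 the lowest (478 CPM). Of 6 tested brain and neuroendocrine names 3 were lower and 1 was higher, with sums between 4660.4 and 5917 CPM at day 8 and between 5319 and 8049 CPM at day 0. The neuronal miR-124-3p had 8 reads in the day 8 libraries and 23 in the day 0 libraries in all. Erythroid names had 0 of 3 called by limma (0 at an unadjusted p under 0.05, 0 calls by edgeR and DESeq2, and 1 with upper quartile factors), endothelial names 2 of 2 higher, leukocyte names 1 lower and 3 higher of 7, mesenchymal names 2 lower and 2 higher of 7, and kidney epithelial names 3 lower and 9 higher of 13. With upper quartile factors the calls were 1 lower and 3 higher of the brain names, 1 lower and 5 higher of the leukocyte names, 2 lower and 4 higher of the mesenchymal names, and 0 lower and 11 higher of the kidney epithelial names.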

How the data were processed

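The authors deposited 1 table of CPM values for 1652 mature miRNA names in 12 kidney libraries, all of which were used. Per the labels' protocols, RNA was extracted by NucleoSpin miRNA kit and libraries were prepared by QIAseq miRNA Library Kit. The submitters' processing notes name FastQC. Not given in the sources used here are the aligner, genome build, miRBase release, use of molecular identifiers and read filters. The CPM values of each library were whole multiples of 1 read (100% within 0.001 of a read), which gave the depths. No library was a copy of another (lowest chi-square per degree of freedom within an age 50.9).

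Replicates were numbered 1 to 6 in series order. Names at 1 CPM or more in at least 6 libraries were tested on log2(CPM + 1) by limma 3.58.1 under R 4.3.3, with the variance trend on and Benjamini-Hochberg adjustment at 0.05. It was checked on simulated data. On the recovered reads, edgeR 4.0.16 called 195 names lower and 173 higher, and DESeq2 1.42.0 called 189 lower and 180 higher. Alternatives were scaling, filter, pseudocount, arm minimum and each library left out. Members and lists were chosen with earlier results of these data known. Named members were the 8 most abundant, the 5 largest falls and 5 smallest changes at a mean of 20 CPM or more, those that missed the threshold, those called relative to miR-379-5p, and those in the arm and seed tests; miR-154-5p, miR-377-3p, miR-543-3p and miR-410-5p were added after their values were seen.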

Additional observations from a re-analysis of the deposited data

Results flagged for a closer look

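Of 100 sets of 6 values examined (the 44 members, their sum and the 5 arm ratios, each within an age), 6 held a value whose gap to its nearest neighbour, as a share of the set's range, was over Dixon's critical value. Chance gives about 1 in 20. Day 8 replicate 3, the day 8 library with the fewest reads, stood above the other day 8 libraries in 5 of them. The values in that library were 4.07 CPM for miR-543-3p (next highest 1.94), 8.34 CPM for miR-495-3p (next highest 2.33), 1.55 CPM for miR-667-3p (next highest 0.49), 3.68 CPM for miR-154-3p (next highest 1.87) and 286 CPM for miR-541-5p (next highest 181). Without day 8 replicate 3 the log2 changes were -2.77 for miR-543-3p, -2.30 for miR-495-3p, -1.25 for miR-667-3p, -1.56 for miR-154-3p and -2.55 for miR-541-5p, each called lower by limma. The sixth was miR-377-3p in day 8 replicate 4, at 7.63 CPM, below the next lowest library at 12.4 CPM.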

How the results depend on the processing

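Over all 564 names, calls higher at day 8 numbered 93 and became 171 with TMM factors, 213 with upper quartile factors, 173 with edgeR and 180 with DESeq2, while calls lower numbered 272 and became 157 with upper quartile factors. Of the members, 42 were lower, and 27 with a filter of 10 CPM, under which fewer names were tested. Their median log2 change was -1.67, and -1.32 with TMM and -1.15 with upper quartile factors. The log2 ratio of the summed CPM was -1.87, and -1.48 with TMM factors. With edgeR and DESeq2 42 members were lower and 0 higher. miR-668-3p turned to 0.073 with DESeq2, 0.019 with TMM factors, 0.059 with edgeR and 0.15 with upper quartile factors, none past the threshold.

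The arm ratio rose in 2 cluster hairpins, in 5 with an arm minimum of 5 CPM, which tests more hairpins, and in 4 with a pseudocount of 5. That pseudocount gave 6 members higher and 5 lower relative to miR-379-5p, beside 3 and 8. It turned the arm ratio of miR-379 to -0.10 and, relative to miR-379-5p, miR-379-3p to 0.10 and miR-369-5p to 0.016. A pseudocount shrinks the change of the less abundant name of a ratio more. TMM and upper quartile factors changed neither the 2 arm calls nor the calls relative to miR-379-5p. Such factors cancel in a ratio within a library except through the pseudocount, so little else was possible. Without a minimum CPM, 1 pair of seed mates was called, beside 0 pairs with it.

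Leaving out each library in turn gave 42 to 43 members lower and 0 higher, a median of -1.74 to -1.62, a log2 ratio of sums of -1.92 to -1.82, and 254 to 281 names lower and 89 to 98 higher over all names. It gave 2 to 3 arm ratios higher and 0 lower, and 3 to 4 members higher and 7 to 8 lower relative to miR-379-5p. No paired analysis was possible because no label links a library of day 8 to a library of day 0. Depth limits the members under 20 CPM most, where a few reads set a value.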
